A study of Mus musculus with 4 samples.

Results

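Granzymes are serine proteases that cytotoxic lymphocytes store in granules, and perforin, the product of Prf1, forms the pore through which they enter a target cell. Granzymes A and B are the best studied of the family, and granzymes C, K and M have narrower or less well understood roles. In the mammary gland, cytotoxic cells include natural killer (NK) cells, which kill without antigen receptors, type 1 innate lymphoid cells (ILC1), CD8 T cells and intraepithelial-type T cells that lie within the ductal epithelium. Here the 6 genes Gzma, Gzmb, Gzmc, Gzmk, Gzmm and Prf1, of 55253 genes matched between 2 libraries, were followed through the lymphocytes of the gland. They were chosen by name, and the gates in which they were counted use none of them.

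The data are droplet RNA counts of CD45+ cells, that is, white blood cells, from mouse mammary glands digested with collagenase. Cells of several samples carried antibody tags (hash tags) and were pooled into 2 libraries, called the earlier and the later pool after the years in the titles. After tags were called and doublets removed, 11 samples remained, 4 in the earlier pool (tags named Nulliparous, Gestation and Lactation, and the sample on tag HT2) and 7 in the later pool (Gestation, Lactation, Involution, Regression, Balb/c, GF and again the sample on tag HT2). Balb/c is an inbred mouse strain, GF is the label's abbreviation and the series' design text names germ-free mice. No label or sheet used here gives the strain of the other animals, any age, the number of animals behind a tag, or the stage at which Balb/c and GF glands were taken. The tag sheets call HT2 germ-free in both libraries, but the title of the earlier pool lists involution and no germ-free sample, so HT2 has no stage name here. It enters only comparisons between cell types. Gestation and Lactation are the only names with a sample in each library, and every other name has 1 sample and no replicate. Nothing says whether samples of 1 name came from separate animals, so p-values measure the spread between these samples.

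The 6 genes lie on 3 chromosomes (GRCm38.p6, from RefSeq). Gzma (chr13:113093824-113100981) and Gzmk (chr13:113171630-113180965) are neighbours 70648 bases apart. Gzmb (chr14:56258836-56262334) and Gzmc (chr14:56231397-56241647) are 17188 bases apart. Gzmm (chr10:79689020-79695261) and Prf1 (chr10:61297751-61304684) share a chromosome but are 18384335 bases apart. Gzmc has close relatives in sequence beside it, and how reads that match more than 1 gene were counted is not given in the sources used here.

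The sequences upstream of the 3 members with the most to show in the comparisons below were read from the RefSeq promoter table (GRCm38.p6), up to 250 bases before the annotated start and in the direction of the gene. Capitals mark each match to the core that Runx factors bind, TGTGGT on either strand (ACCACA on the other). Runx factors are transcription factors of the T and NK lineages. The windows are chr13:113100982-113101231 (minus strand) for Gzma, chr14:56262335-56262584 (minus strand) for Gzmb and chr10:61297586-61297750 (plus strand, 165 bases before the first annotated base) for Prf1.
Gzma: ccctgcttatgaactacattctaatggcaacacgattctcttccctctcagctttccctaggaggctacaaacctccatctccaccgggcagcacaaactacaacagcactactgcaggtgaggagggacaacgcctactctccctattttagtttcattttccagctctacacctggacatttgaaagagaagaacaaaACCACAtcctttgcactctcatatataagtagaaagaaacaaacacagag
Gzmb: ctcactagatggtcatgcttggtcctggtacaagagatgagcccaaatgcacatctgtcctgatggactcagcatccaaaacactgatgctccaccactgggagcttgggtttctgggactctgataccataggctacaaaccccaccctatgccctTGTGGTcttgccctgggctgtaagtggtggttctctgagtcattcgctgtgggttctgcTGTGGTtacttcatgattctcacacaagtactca
Prf1: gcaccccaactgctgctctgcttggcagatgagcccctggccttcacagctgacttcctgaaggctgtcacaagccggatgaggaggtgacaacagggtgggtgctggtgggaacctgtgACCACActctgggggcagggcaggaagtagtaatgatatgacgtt
Gzma held 1 match, 50 bases before its start, Gzmb held 2, 93 and 34 bases before its start, and Prf1 held 1. Of 32851 promoter windows of 250 bases in the table, 14.0% held at least 1 match. Among the other members, Gzmc held 2 matches, Gzmm held 1 at 1 of its 2 start sites, and Gzmk held none. Gzmk held 2 matches to TCACAC, a T-box half-site (either strand), which 12.3% of windows hold, and the other Gzmm start site held 1. The Gzmb window also held 1 TCACAC and 1 TGANTCA, the AP-1 motif found in 6.75% of windows. These matches describe letters in a window and show no binding.

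Lymphocytes were sorted by gates on raw counts of unique molecular identifiers (UMIs), which count captured RNA molecules. T gates needed a UMI of Cd3e and none of Ncr1, and were split into CD4 T (Cd4), CD8ab T (Cd8b1, the beta chain), CD8a-only T (Cd8a without Cd8b1), gd T (Trdc, the delta chain constant gene) and other T (none of these). Cells with Ncr1, which encodes the NK receptor NKp46, were called NK with Eomes and no Cd3e, Ncr1+ Eomes- without either, and Cd3e+ Ncr1+ with both Cd3e and Ncr1. These 8 gates held 10385 of 29900 analysed cells, 4732 in the earlier pool and 5653 in the later pool. Hash samples had 783 to 5633 cells and 2910347 to 11421128 UMIs in all, and a median of 1193 to 2040 UMIs per cell in the earlier pool against 2402 to 3170 in the later pool. Only 139 cell barcodes occur in both libraries.

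The gates were checked against genes not used to draw them. Cd3d, a T cell receptor component, had a UMI in 55.1% to 88.3% of the cells of each T gate and in 3.53% and 10.0% of NK cells (earlier and later pool). Klra4, an Ly49 receptor of NK cells, was found in 43.1% and 39.9% of NK cells and in 17.3% and 11.99% of Ncr1+ Eomes- cells, whereas Itga1, a marker of ILC1, was found in 7.07% and 15.0% against 31.9% and 53.1%. The Ncr1+ Eomes- gate is therefore a mixture that holds ILC1 marker genes and also NK marker genes. CD8a-only, gd and Cd3e+ Ncr1+ cells carried genes of intraepithelial-type T cells more often than CD4 T cells. Itgae, an integrin chain that binds epithelium, had a UMI in 46.6% to 59.1% of their cells against 4.19% and 7.78%, and Cd160 had one in 33.7% to 46.7% against 2.40% and 4.40%. The milk protein gene Csn2 had a UMI in 37.5% to 43.7% of the cells of each lymphocyte gate in the earlier pool and in 72.7% to 78.5% in the later pool, a measure of free RNA. B cells (Cd79a and Ms4a1) and myeloid cells served as cell types that should hold little of the 6 genes.

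Among the gates, Prf1 had its highest median level in NK cells. In UMIs per 10000 UMIs of that gate, the 11 samples ranged from 4.81 (later Regression) through a median of 7.39 to 9.54 (earlier Gestation). NK cells held 11.7% and 30.1% of all Prf1 UMIs of the analysed cells in the earlier and the later pool, with 1.85% and 3.28% of the cells. Cells outside every gate held 47.2% and 24.5% of them. Between 55.6% and 84.0% of NK cells had a Prf1 UMI, against at most 1.89% of B cells. The gate next in order, Ncr1+ Eomes-, had a median of 3.24 and a wide range, 1.31 (Balb/c) to 11.1 (earlier HT2), which overlaps that of NK cells. Every other lymphocyte gate had a median between 0.125 (CD4 T) and 1.02 (Cd3e+ Ncr1+). Among these, CD8ab T (0.546 to 1.12), CD8a-only T (0.189 to 1.17), gd T (0.189 to 2.27) and other T (0.192 to 0.658) overlapped throughout. B cells had a median of 0.0417.

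**Figure D1:**
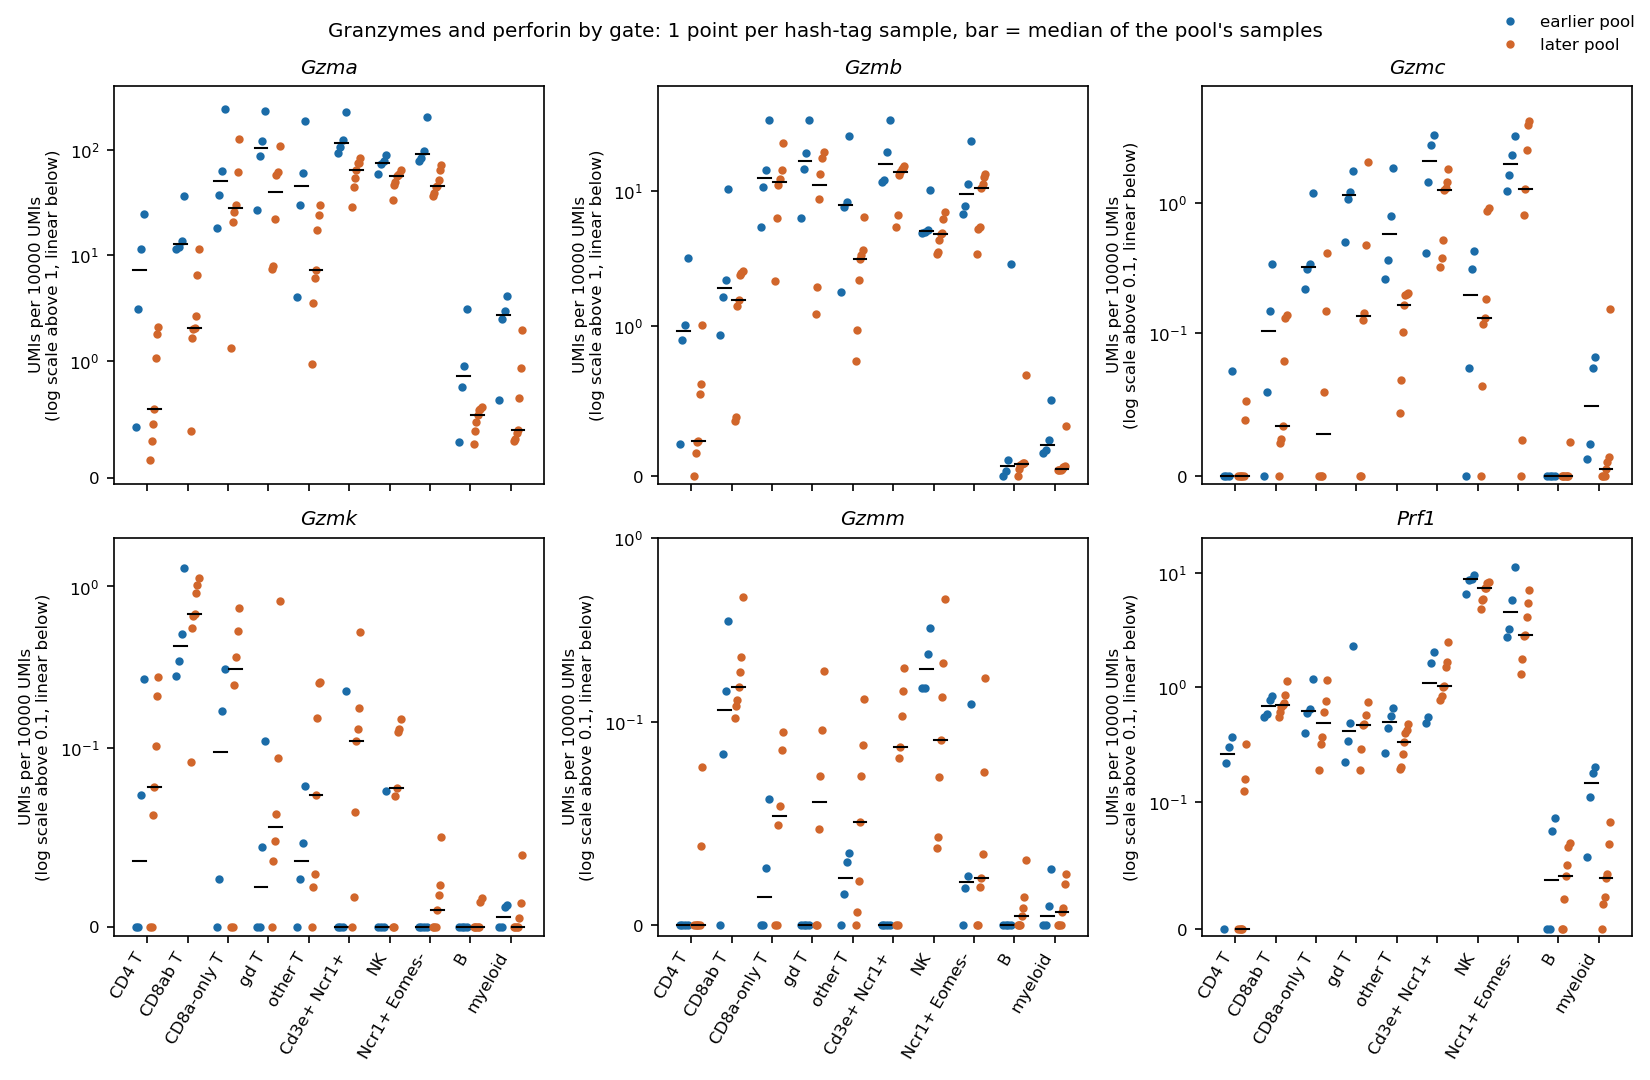
UMIs of each of the 6 genes per 10000 UMIs of the gate, 1 point per hash sample and gate with at least 20 cells, coloured by pool, with a bar at the median of each pool. The value axis is a log scale above a limit given on it and linear below. Prf1 has its highest medians in NK cells (4.81 to 9.54 over samples), Gzmb has higher medians in gd T (14.0) and CD8a-only T cells (11.7) than in NK cells (4.92), and the Gzma medians of gd T (59.1) and NK cells (58.2) lie close together.

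Gzma, a trypsin-like granzyme, was spread over more cell types. Its medians were 75.2 in Cd3e+ Ncr1+ cells (28.3 to 228), 63.8 in Ncr1+ Eomes- cells (36.6 to 202), 59.1 in gd T cells (7.41 to 232) and 58.2 in NK cells (33.5 to 88.0). These 4 gates are not separated by their spread over samples. CD8a-only T cells had a median of 33.6, from 1.33 (Regression) to 244 (earlier Lactation), and CD8ab T cells one of 6.45 (0.396 to 36.0). In NK cells 76.2% to 98.4% of cells had a Gzma UMI.

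Free RNA limits the low end of Gzma. B cells, with a median of 878 to 2174 UMIs per cell by sample, had a Gzma UMI in 3.64% to 14.0% of cells and a level of 0.289 to 3.09. CD4 T cells, which were deeper (1186 to 3026), had one in 5.88% to 28.6%, a range that overlaps that of B cells, and their low Gzma cannot be told apart from background. After each cell was thinned to 1000 UMIs (shallower cells left out), the shares were 3.57% to 10.2% in B cells, 0% to 20% in CD4 T cells and 70.3% to 93.5% in NK cells. Single cells could set a level: 1 cell held 94.6% of the 92 Gzma UMIs of CD4 T cells in earlier Lactation and 94.7% in earlier HT2. The same share reached 83.2% in gd T cells (earlier HT2), but at most 28.2% in NK cells.

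Gzmb, which cleaves after aspartate and activates caspases, had higher medians in several T gates than in NK cells, unlike Prf1. Its medians were 14.0 in gd T cells (1.24 to 33.8), 13.8 in Cd3e+ Ncr1+ cells (5.40 to 33.7), 11.7 in CD8a-only T cells (2.18 to 33.3), 10.5 in Ncr1+ Eomes- cells (3.44 to 23.6) and 4.92 in NK cells (3.43 to 10.1). CD8ab T cells had a median of 1.64 and CD4 T cells one of 0.551. In B cells the median was 0.0837, and the one value above 1, 2.87 in earlier Lactation, rested for 92.3% on 1 cell.

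The mixture of members therefore differed between gates. Since these counts are of molecules at the 3' end, ratios were compared between gates and not read as protein. NK cells held a median of 8.40 Gzma UMIs per Prf1 UMI (5.60 to 10.1 over 11 samples), CD8a-only T cells 78.1 (27.0 to 617, 8 samples with at least 5 Prf1 UMIs) and gd T cells 190 (10.0 to 474, 7 samples). NK and CD8a-only T cells did not overlap in this ratio among samples with at least 5 Prf1 UMIs. Below that minimum, Regression had 7.0 Gzma UMIs per Prf1 UMI in CD8a-only T cells, from 14 and 2 UMIs, which lies inside the NK range, and earlier HT2 had 28.0 from 3 Prf1 UMIs. Gzmb UMIs per Prf1 UMI had a median of 0.712 in NK cells (0.540 to 1.15) against 22.0 in CD8a-only T cells (9.16 to 84.3), again without overlap, and 34.4 in gd T cells (1.67 to 69.1). Gzma UMIs per Gzmb UMI had a median of 11.6 in NK cells (7.99 to 15.0) and 3.73 in CD8a-only T cells (0.609 to 7.32).

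**Figure D2:**
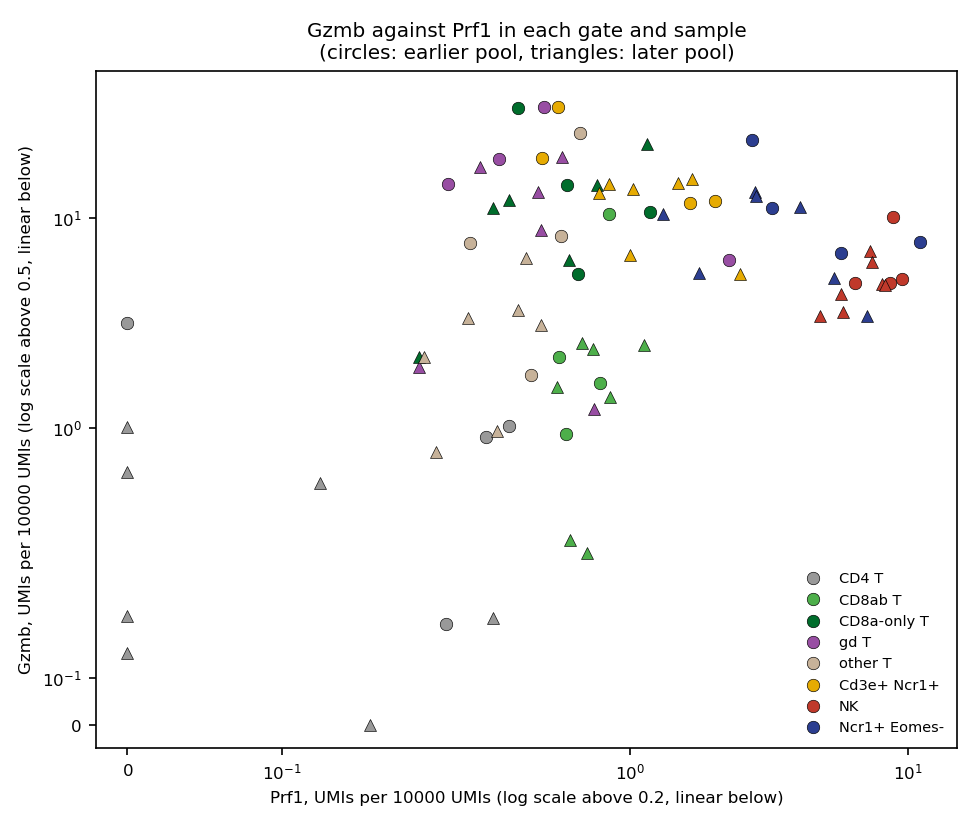
Gzmb against Prf1, both in UMIs per 10000 UMIs of the gate, 1 point per hash sample and gate, coloured by gate, with circles for the earlier pool and triangles for the later pool. Both axes are log scales above a limit given on them and linear below. NK samples lie at high Prf1 (4.81 to 9.54) with moderate Gzmb, and gd T and CD8a-only T samples lie at low Prf1 with Gzmb up to 33.8.

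Gzmc had its highest median in Ncr1+ Eomes- cells, at 1.65, followed by Cd3e+ Ncr1+ cells at 1.32 (0.322 to 3.37), whose range overlaps. The Ncr1+ Eomes- gate held 28.0% and 51.2% of all Gzmc UMIs of the analysed cells in the earlier and the later pool, with 7.88% and 6.05% of the cells. Cells outside every gate held 45.3% and 18.0% of the Gzmc UMIs. The Ncr1+ Eomes- gate also held 30.6% and 22.8% of all Prf1 UMIs. By sample the Gzmc level in this gate was 1.24 in HT2, 1.65 in Nulliparous, 2.36 in Gestation and 3.29 in Lactation in the earlier pool. In the later pool it was 4.03 in Balb/c, 4.27 in GF, 0.0252 in HT2, 0.805 in Gestation, 2.56 in Lactation, 1.29 in Involution and 0 in Regression. The later HT2 sample had 1 Gzmc UMI in 128 cells and Regression had 0 in 52 cells, where 3 counts would be a level of 0.211. Balb/c and GF were the highest samples, each with 1 sample and no replicate. NK cells had a median of 0.130 (0 to 0.909), and B cells had 3 UMIs in all.

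The Ncr1+ Eomes- gate was then divided by its own markers, a division chosen after the data were seen, and the subsets with at least 20 cells are described. Cells with Itga1 and without Klra4 or Klra8 (716 cells, 6 samples) had a median Gzmc level of 3.52 (1.32 to 6.34) and a median Prf1 level of 0.673 (0.428 to 0.857). Cells with Klra4 or Klra8 and without Itga1 (388 cells, 6 samples, 4 of them the same) had 0.0374 (0 to 0.821) and 11.7 (8.51 to 14.2). Balb/c gave 244 of the 716 Itga1 cells, but only 6 of its 347 cells in the gate had Klra4 or Klra8 without Itga1. The absence of Klra4 and Klra8 therefore separates few cells in that sample, and the reason was not tested. Among subsets with at least 20 cells neither gene overlapped, and the share of all genes without overlap was not counted. In smaller subsets, Itga1 cells of later HT2 (17 cells) and Regression (10 cells) had Gzmc at 0, inside the range of the Klra4 or Klra8 cells. Itga1 cells of earlier HT2 (18 cells) had Prf1 at 4.38, still below the Klra4 or Klra8 range. Gzmb had medians of 16.1 (9.71 to 28.8) and 7.16 (5.54 to 9.94), which overlapped, and Gzma had medians of 91.1 and 81.9.

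**Figure D3:**
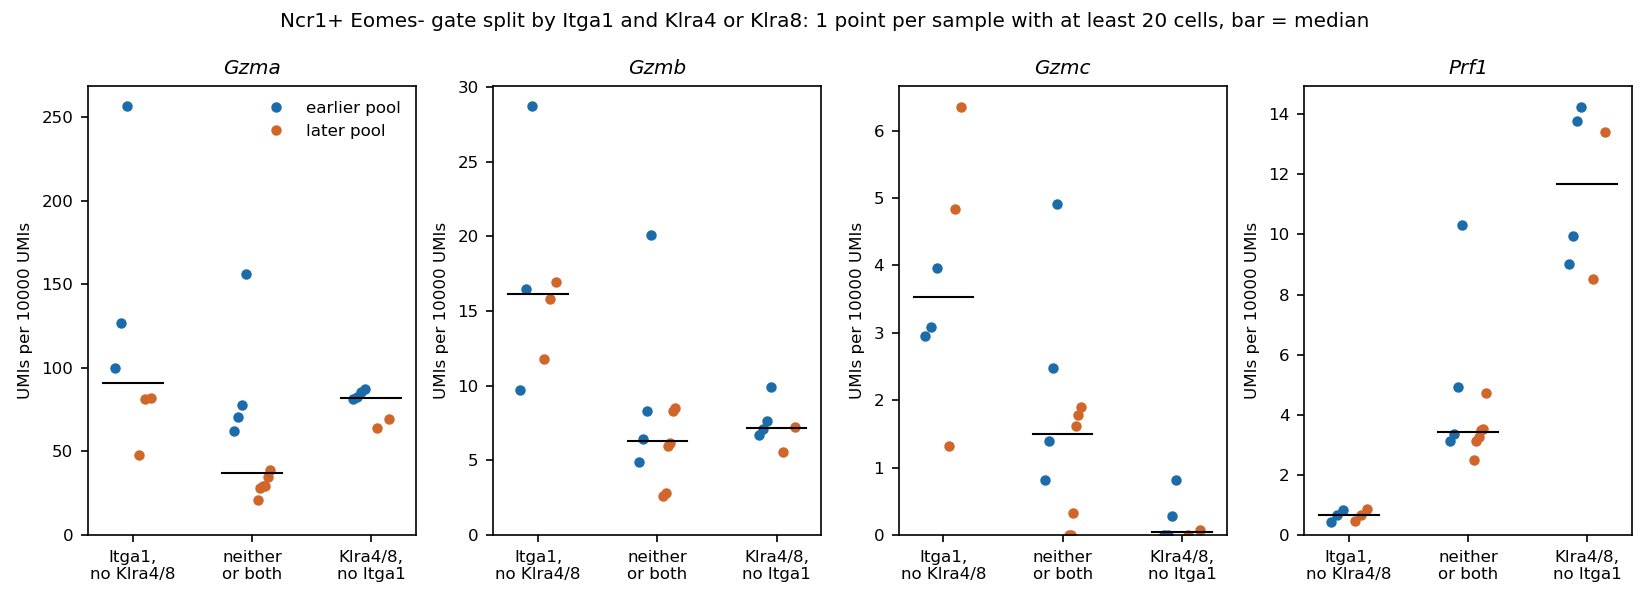
Levels of Gzma, Gzmb, Gzmc and Prf1 in the parts of the Ncr1+ Eomes- gate with Itga1, with Klra4 or Klra8, and with neither or both, in UMIs per 10000 UMIs on linear axes, 1 point per hash sample, coloured by pool, with at least 20 cells in the part. The Gzmc points of the Itga1 part (1.32 to 6.34) lie above those of the Klra4 or Klra8 part, and the Prf1 points lie below.

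Gzmk, a trypsin-like granzyme of memory-type CD8 T cells, followed CD8ab T cells. That gate held 31.7% and 48.7% of all Gzmk UMIs of the analysed cells in the earlier and the later pool. Cells outside every gate held 49.1% and 18.7% of them. In CD8ab T cells the Gzmk level was 0.346 in HT2, 0.277 in Nulliparous, 1.29 in Gestation and 0.504 in Lactation in the earlier pool. In the later pool it was 0.911 in Balb/c, 0.555 in GF, 1.02 in HT2, 0.653 in Gestation, 1.13 in Lactation, 0.0922 in Involution and 0.676 in Regression. Involution was the lowest sample, with 7 UMIs in 193 cells. CD8a-only T cells had a median of 0.208 and no other gate had a median above 0.0734. The level was higher in CD8ab than in CD4 T cells in 11 of 11 samples.

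Gzmm, a granzyme known from NK cells and innate-like T cells, was near the limit of detection, with 99 UMIs in the analysed cells of the earlier pool and 250 in the later pool. NK cells had a median of 0.151 (0.0379 to 0.465) and CD8ab T cells one of 0.146 (0 to 0.478), and both medians rest on a few UMIs per sample. The highest NK value, in GF, came from 12 UMIs in 64 cells. In 6 of the 11 samples the NK value came from 1 or 2 UMIs.

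Differences between gates were tested on UMI sums per sample and gate with edgeR's quasi-likelihood test across all genes, with the sample as a block, Benjamini-Hochberg adjustment and a threshold of 0.05. A gene needed enough counts to be tested, so Gzmk and Gzmm, and in most fits Gzmc, were left out of the main tests. They are given below as log2 differences from the fit without that filter, with the UMIs behind them and the number of samples in that direction. No p-value is given for them, since that fit's standard errors were much smaller (0.0976 against 0.31 for Gzma in NK minus CD8ab T cells) and its p-values carry little of the spread between samples.

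NK cells were compared with Ncr1+ Eomes- cells in 11 samples, and 6.92% of 3785 genes tested were called (3.51% higher and 3.41% lower). Of the 4 members tested, Prf1 was higher in NK cells by 0.92 on the log2 scale (SE 0.16, adjusted p = 0.000278, higher in 9 of 11 samples). Gzmc was lower in NK cells, at -2.65 (SE 0.28, adjusted p = 1.49e-07, lower in 9 of 11 samples), and Gzmb was lower, at -0.82 (SE 0.13, adjusted p = 6.68e-05, lower in 10 of 11). Gzma differed by -0.15 (SE 0.10), with an adjusted p of 0.471 by edgeR. Without the filter, Gzmm differed by 1.87, from 39 against 19 UMIs, and its level was the higher in NK cells in 10 of 11 samples. With only the Itga1 cells without Klra4 and Klra8 in the second gate, an alternative chosen after the data were seen, the Prf1 difference was 3.42, that of Gzmc -3.50, that of Gzmb -1.52 and that of Gzma -0.68 (edgeR adjusted p = 0.00611). The Prf1 call was lost without the sample block (0.73, edgeR adjusted p = 0.171), in the earlier pool alone (0.71, adjusted p = 0.198) and in cells thinned to 1000 UMIs (0.43, adjusted p = 0.493), where the Gzmb call was lost too (-0.62, adjusted p = 0.132). Thinned cells were gated again, and only 3 earlier and 2 later samples then had enough NK cells. The thinned result therefore cannot tell lower depth from fewer samples. The gates differ by detection of 1 gene, and their median depths by sample overlapped, 1243 to 2083.5 UMIs per NK cell against 1205 to 2230 in the earlier pool and 2911.5 to 3782 against 2511 to 3480 in the later pool.

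NK cells were then compared with CD8ab T cells, where 32.2% of 3297 genes were called (16.2% higher and 16% lower), so that a call is common. All 3 members tested were called higher in NK cells by edgeR: Gzma by 3.31 (SE 0.31, adjusted p = 1.02e-09, 11 of 11 samples), Gzmb by 1.40 (SE 0.22, adjusted p = 1.44e-05, 10 of 11) and Prf1 by 3.15 (SE 0.12, adjusted p = 3.26e-18, 11 of 11). The Prf1 levels of the gates did not overlap, 4.81 to 9.54 against 0.546 to 1.12. The share of all genes without overlap between these gates was not counted. Gzmk had the opposite sign: without the filter it differed by -3.27, from 17 against 312 UMIs, and its level was the lower in NK cells in 11 of 11 samples.

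Among CD8 T cells, those without Cd8b1 were compared with those with it in 10 samples, and 12.6% of 3350 genes were called (6.33% higher and 6.3% lower). CD8a-only T cells carried Itgae in 46.6% and 49.2% of cells by pool against 16.9% to 27.5% of CD8ab T cells, and Cd160 in 37.7% to 43.8% against 13.0% to 18.4%. They had more Gzma, by 2.72 (SE 0.27, adjusted p = 8.88e-08), and more Gzmb, by 2.67 (SE 0.16, adjusted p = 4.89e-12), each in 10 of 10 samples by edgeR. Prf1 differed by -0.31 (SE 0.22, adjusted p = 0.447) and so was not among the genes called. Without the filter, Gzmk differed by -1.34 (52 against 297 UMIs, lower in 9 of 10 samples), Gzmm by -2.11 (7 against 85 UMIs, lower in 9 of 10) and Gzmc by 1.28 (79 against 42 UMIs, higher in 7 of 10).

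CD4 T cells, mostly helper and regulatory cells, were the low reference. CD8ab T cells exceeded them in Gzma by 1.43 (SE 0.31, adjusted p = 0.00232, 10 of 11 samples), in Gzmb by 1.74 (SE 0.31, adjusted p = 0.000236, 10 of 11) and in Prf1 by 2.55 (SE 0.32, adjusted p = 2.03e-06, 11 of 11) by edgeR, where 12.4% of 2833 genes were called (6.64% higher and 5.72% lower). The Gzma call was lost without the sample block (1.68, edgeR adjusted p = 0.241) and in the earlier pool alone (1.21, adjusted p = 0.186), where 1 cell held most of the CD4 T UMIs in the HT2 and Lactation samples. The Gzmb call was lost when each gate gene needed 2 UMIs (0.54, edgeR adjusted p = 0.512). Without the filter Gzmk differed by 3.04 (312 against 18 UMIs, higher in CD8ab T cells in 11 of 11 samples), and Gzmm had 92 UMIs in CD8ab T cells and 2 in CD4 T cells. Gd T cells exceeded CD4 T cells in Gzma by 4.39 (SE 0.48, adjusted p = 1.48e-06) and in Gzmb by 4.06 (SE 0.43, adjusted p = 9.86e-07), each in 10 of 10 samples by edgeR, where 12.1% of 2401 genes were called (5.71% higher and 6.37% lower). Without the filter Prf1 differed by 1.80 (77 against 27 UMIs, higher in gd T cells in 8 of 10 samples).

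The difference between the libraries was itself tested in each of the 5 comparisons. By edgeR none of the 15 member tests was called and 3 had an unadjusted p under the threshold. No gene at all was called there, 0 of 3785, 2833, 3350, 2401 and 3297 tested (0% in each), so nothing about the members is read from it. The member with the lowest unadjusted p was Gzma in NK minus CD8ab T (edgeR, later minus earlier pool, 2.06, adjusted p = 0.168). In that comparison the excess of Gzma over CD8ab T cells was the smaller in the earlier pool.

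Other genes of the granule pathway were followed in lists, and the share of all genes called in the same direction is given beside each count. Loading genes (Srgn, the granule proteoglycan; Ctsc, which activates progranzymes; Ctsw; Cst7; Ctsl; Nkg7, a granule membrane protein; Lamp1; Lamp2) were higher in NK than in CD8ab T cells for 5 of 6 tested (16.2% of all genes were higher), with a list median of 0.57 against 0.00 over all genes, led by Nkg7 at 1.09. They were also higher in CD8a-only than in CD8ab T cells for 5 of 6 (6.33% of all genes; median 0.49 against 0.00), with Ctsw at 0.69 and Srgn at 0.62. Between NK and Ncr1+ Eomes- cells 1 of 7 was higher (Nkg7, 0.37) and 2 were lower (Srgn, -0.36, and Ctsw, -0.30), against 3.51% and 3.41% of all genes. Against CD4 T cells, 3 of 6 were higher and 1 lower in CD8ab T cells (Cst7 at 1.88 and Nkg7 at 1.69 among those higher), against 6.64% and 5.72% of all genes. In gd T cells 3 of 5 were higher than in CD4 T cells (Nkg7, 1.88), against 5.71%.

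Genes for granule release and a list of serpins, a family of protease inhibitors, were compared in the same way. Of 8 release genes tested in NK minus CD8ab T, 4 were higher, among them Sytl3 at 1.62 and Rab27a, a small GTPase of granule docking, at 0.55, and Lyst was lower at -0.45 (list median 0.29), where 16.2% of all genes were higher and 16% lower. Of 7 tested in CD8a-only minus CD8ab T, 2 were higher, Sytl2 at 0.90 and Sytl3 at 0.82, against 6.33% of all genes. Of 8 tested between NK and Ncr1+ Eomes- cells, none was called by edgeR and 2 had an unadjusted p under the threshold. The serpins of the list were higher in NK than in CD8ab T cells for 3 of 3 tested (16.2% of all genes). These were Serpinb9, an inhibitor of granzyme B, at 2.68, Serpinb6b at 2.24 and Serpina3g at 1.42. Whether each of them acts on granzymes was not tested. Both serpins tested were higher in CD8a-only than in CD8ab T cells (Serpina3g 1.06 and Serpinb6b 0.86), against 6.33% of all genes. Between NK and Ncr1+ Eomes- cells Serpinb9 (0.55) and Serpinb6b (0.49) were higher and Serpina3g was lower (-0.53), against 3.51% and 3.41% of all genes.

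Effector ligands and cytokines act outside the granule. Of this list, 3 of 4 tested were higher in NK than in CD8ab T cells (16.2% of all genes). In CD8a-only minus CD8ab T, 3 of 5 were higher (6.33%). In gd minus CD4 T, 3 of 4 were higher (5.71%), and in CD8ab minus CD4 T, 2 of 4 (6.64%). Between NK and Ncr1+ Eomes- cells 2 of 4 were lower (3.41%). Only Xcl1 and Tnfsf10 are given here with log2 differences, and the other calls are not listed. Xcl1, a chemokine of cytotoxic cells, was higher in NK than in CD8ab T cells (2.25), in CD8a-only than in CD8ab T cells (2.15) and in gd than in CD4 T cells (2.91), but lower in NK than in Ncr1+ Eomes- cells (-0.65). Tnfsf10, which encodes the death ligand TRAIL, was lower in NK than in Ncr1+ Eomes- cells (-1.78) and higher in CD8a-only than in CD8ab T cells (1.29). Of the 5 granzyme genes outside the set (Gzmd, Gzme, Gzmf, Gzmg and Gzmn), none had enough counts to be tested in any comparison.

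Members were also counted together in single cells, with every cell thinned to 1000 UMIs and at least 50 cells per sample. The observed share of cells with both genes was set against the product of the single shares, in samples where that product came to at least 3 cells. The larger single share sets an upper limit to this ratio. The limit is low where a gene is in most cells, as Gzma is in NK cells, so the gates are not ranked by it. Gzma and Gzmb met more often than the product in every sample tested, with a median ratio of 1.14 in NK cells (7 samples), 1.34 in Ncr1+ Eomes- cells (10 samples), 1.49 in CD8a-only T cells (6 samples) and 3.12 in CD8ab T cells (3 samples). Gzmb and Gzmc met more often in 5 of 5 Ncr1+ Eomes- samples (median 1.40). Gzmc and Prf1 met less often in 6 of 6 of these samples (median 0.315, 0 to 0.627), which sets Gzmc apart from Prf1 within the gate. Of the NK cells with Gzma, 45.0% to 62.2% also had Prf1, against 6.84% to 18.9% of such CD8a-only T cells.

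The stages could be compared only as Lactation minus Gestation, which asks how the cytotoxic genes stand in milk-producing glands, with 1 sample of each in each library. With the library as a block, 1 residual degree of freedom remains, and edgeR then borrows nearly all of its estimate of the spread from other genes. Summed over the 5 T gates, Gzma was 55.4 in Gestation and 192 in Lactation in the earlier pool, and 7.33 and 26.1 in the later pool. Gzmb was 7.69 and 27.1 in the earlier pool, and 3.47 and 4.59 in the later pool. Lactation was the higher in both libraries for both genes, although the later Lactation values lie below the earlier Gestation values.

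Of the 5 members tested in the T gates, 2 were called, where edgeR called 0.68% of 8973 genes (0.267% higher and 0.412% lower). Gzma was higher in Lactation by 1.80 (SE 0.32, adjusted p = 9.29e-06) and Gzmb by 1.10 (SE 0.28, adjusted p = 0.0165). Gzmc differed by 1.09 (adjusted p = 0.0565), but in opposite directions in the 2 libraries, 0.361 and 1.48 in the earlier pool and 0.130 and 0.0839 in the later pool. Prf1 was 0.614 and 0.558 in the earlier pool and 0.438 and 0.448 in the later pool (-0.07, by edgeR not called). Gzma and Gzmb are therefore called and Prf1 is not, and the differences between the genes were not tested. Both calls were lost without the library block, where edgeR called 0 of 8973 genes from all 4 samples. Fits with 1 of the 4 samples left out drop that block too. Their values were -0.55 to 4.14 for Gzma and -0.52 to 2.43 for Gzmb, and they cannot tell the sample left out from the missing block.

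The share of CD8a-only and gd T cells moved with these values in both pools. Depth and the Gzma of B cells moved with them in the earlier pool. The part of each in the result was not tested. CD8a-only and gd T cells, the T gates highest in median Gzma and Gzmb, were 23.1% of 775 T cells in earlier Gestation and 38.9% of 625 in earlier Lactation. In the later pool they were 13.3% of 1340 and 18.1% of 348. Other T cells moved in opposite directions, 59.2% and 47.4% in the earlier pool and 32.7% and 43.7% in the later pool. They held 11821 of the 26807 Gzma UMIs of the T gates in earlier Lactation and 1363 of 2795 in later Lactation. B cells, as a measure of free RNA and stray cells, had Gzma at 0.773 in Gestation and 3.09 in Lactation in the earlier pool (78.6% of the latter's 14 UMIs in 1 cell) and at 0.604 and 0.289 in the later pool. The earlier Lactation sample had the higher median depth of its library's pair, 2040 against 1193 UMIs per cell. Without that sample and without the library block, Gzma was -0.55 and Gzmb -0.52. That fit set later Lactation against Gestation of both pools, so the gap between the pools enters its sign. Within the later pool alone, Lactation was the higher by 1.83 for Gzma and 0.40 for Gzmb on the log2 scale. With a stricter tag call, which called 177 in place of 795 cells for later Lactation, Gzma was 0.91 and not called by edgeR. The log2 values stayed near those of the main fit without TMM scaling (Gzma 1.81) and with Cd3d or Cd3g required in T gates (Gzma 1.77), but edgeR's adjusted p was then 0.404 and 0.268. DESeq2 kept Gzma (adjusted p = 3.22e-09) and not Gzmb (adjusted p = 0.9997).

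**Figure D4:**
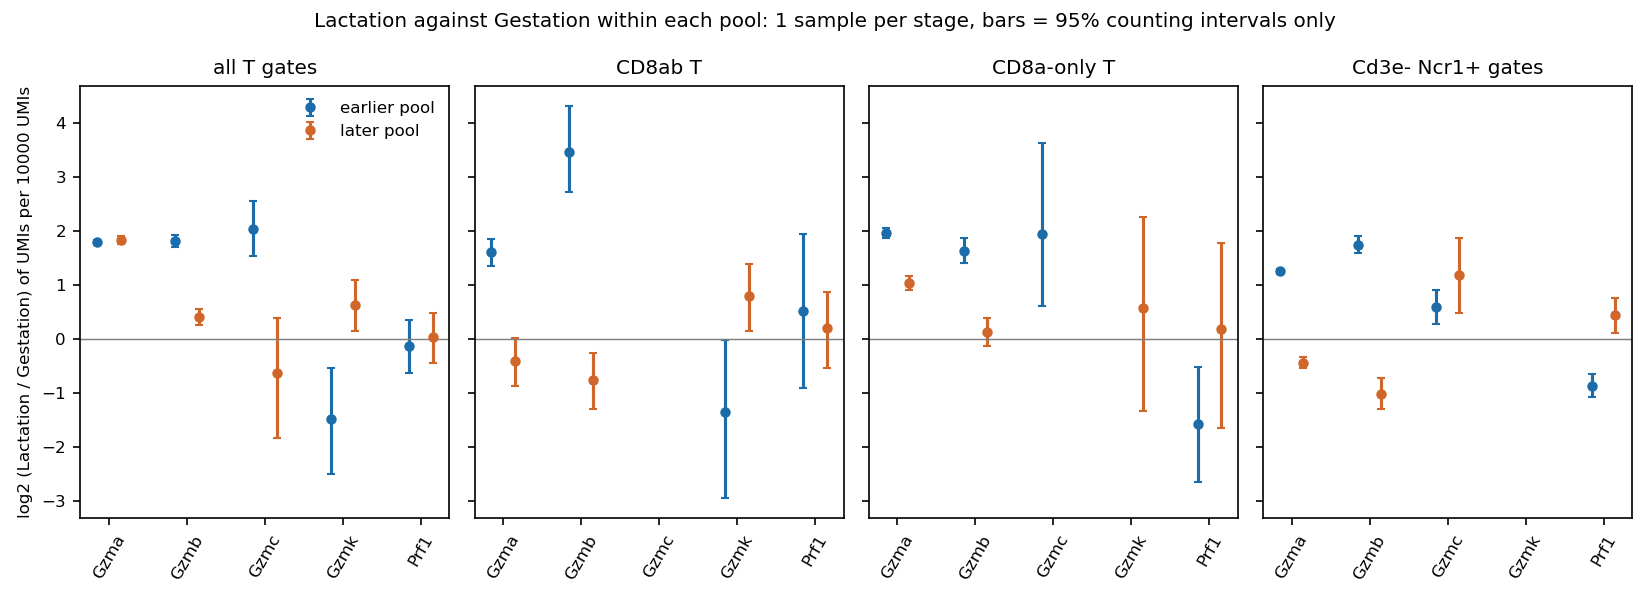
Log2 ratio of Lactation to Gestation, in UMIs per 10000 UMIs, for Gzma, Gzmb, Gzmc, Gzmk and Prf1 (horizontal axis) in the T gates together, CD8ab T, CD8a-only T and Cd3e- Ncr1+ cells, 1 point per pool with a 95% interval for counting error only. Points are drawn where both samples hold at least 4 UMIs. Gzma lies above 0 in both libraries in the T gates together and in CD8a-only T cells. Its points lie on opposite sides of 0 in CD8ab T and Cd3e- Ncr1+ cells, but the later CD8ab T interval includes 0.

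Within 1 gate, Gzma was called in CD8a-only T cells, where its level was 62.6 in Gestation and 244 in Lactation in the earlier pool and 29.7 and 61.0 in the later pool (1.49, SE 0.20, edgeR adjusted p = 2.6e-09, 1 of 3 members tested and 0.0978% of 4092 genes called). In cells thinned to 1000 UMIs the share with Gzma was 52.0% and 79.1% in the earlier pool and 26.0% and 34.1% in the later pool, against unthinned shares of 47.9%, 82.8%, 32.4% and 39.0%. The Gzma call was lost without the library block (1.77, edgeR adjusted p = 0.9983), where 0 of 4092 genes were called. It was also lost in thinned cells (1.52, edgeR adjusted p = 0.527), and DESeq2 kept it (adjusted p = 0.0422). Fits with 1 of the 4 samples left out drop the block too (0.15 to 2.56), so they cannot tell the sample left out from the missing block. In the later pool the intervals of these shares overlap, and the Lactation sample has 41 such cells. Gzmb was 10.8 and 33.3 in the earlier pool and 11.2 and 12.2 in the later pool (0.88, edgeR adjusted p = 0.274). In gd T cells, which were described and not tested, Gzma was 120 and 232 in the earlier pool and 22.1 and 60.8 in the later pool. Other T cells were not tested either. Gzma there made up 3832 of 638684 UMIs in Gestation and 11821 of 638002 in Lactation in the earlier pool. In the later pool it made up 1080 of 1490488 and 1363 of 455680.

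In CD8ab T cells none of the 4 members tested was called by edgeR or by DESeq2, where edgeR called 0.0308% of 3244 genes and 134 had an unadjusted p under the threshold. The libraries went opposite ways there for Gzmb, which was 0.942 and 10.4 in the earlier pool but 2.38 and 1.41 in the later pool. Gzma was 11.8 and 36.0 in the earlier pool and 2.63 and 1.98 in the later pool. Its later difference was within counting error (log2 -0.41, 95% interval -0.865 to 0.0146), from 49 UMIs in 81 Lactation cells. Gzmk, by contrast, was 1.29 and 0.504 in the earlier pool but 0.653 and 1.13 in the later pool. In NK and Ncr1+ Eomes- cells together none of 4 was called by edgeR or by DESeq2, where edgeR called 0.904% of 7632 genes (0.799% higher and 0.105% lower) and 467 had an unadjusted p under the threshold. Gzma was 78.4 and 187 in the earlier pool and 62.2 and 45.9 in the later pool, Gzmb was 6.48 and 21.8, then 10.4 and 5.15, and Prf1 was 6.48 and 3.56 in the earlier pool and 3.68 and 4.97 in the later pool. Only Gzmc of these 4 was higher in Lactation in both pools, at 1.92 and 2.89 in the earlier and 0.610 and 1.39 in the later pool. No gene of the loading, release, inhibitor or effector lists was called by edgeR in any of the 4 stage comparisons, in 95 tests, of which 8 had an unadjusted p under the threshold.

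The later samples with 1 sample per name are described without a test, with exact Poisson intervals that cover counting error only. In CD8a-only T cells Gzma was 126 in GF (95% interval 121 to 130), 25.8 in Involution (22.9 to 28.9), 20.5 in Balb/c (18.5 to 22.8) and 1.33 in Regression (0.724 to 2.22). GF was the highest later sample and Regression the lowest, and Regression rests on 14 UMIs in 25 cells. In gd T cells GF was again the highest of these at 108 (104 to 112), followed by 57.4 in Balb/c. Involution (7.94) and Regression (7.41, 6.15 to 8.86) were not separated by counting error there. NK cells of these samples lay closer together, from 33.5 in Regression to 64.2 in Involution.

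Finally, the genes whose pattern was most like each member were listed over 86 gate-by-sample profiles and 8354 genes, by Pearson's r of log2 CPM after centring on the library. Profiles share samples and gates, so r is a description. Gzma was most like Fcer1g (0.93), Gzmb (0.91) and Cd244a (0.91), and Gzmb was most like Cd7 (0.92), Gzma (0.91) and Xcl1 (0.89). Prf1 was most like Adamts14 (0.87), Styk1 (0.86) and Prr5l (0.86), and Gzmc most like Clnk (0.70), Sulf2 (0.68) and Car2 (0.68). Gzmk was most like the gate genes Cd8b1 (0.62) and Cd8a (0.60). Gzma and Prf1 had an r of 0.57 and Gzmc and Prf1 one of 0.29. Gzmm was below the level at which profiles were compared.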

How the data were processed

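The deposited gene and tag matrices hold raw counts, that is UMI counts per gene and tag counts per hash tag for each cell barcode. Per the labels, libraries were made with 10x Genomics chemistry 3' v3.1. Cell Ranger 6.1.0 and mm10 are named per the submitters' processing notes, and Cell Ranger 4 per the file headers of the earlier matrix. The counter of the earlier tags is not given in the sources used here. The earlier gene matrix lists 1347735 barcodes and the later matrix 21632.

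Barcodes were kept as cells from 500 UMIs and 300 detected genes upward when mitochondrial genes held 10% of UMIs or less (21604 and 21177 cells). Tags were called with HTODemux (Seurat 5.3.0, positive quantile 0.99) for tags totalling 100 counts or more. Cells with several tags or none were removed, as were Scrublet doublet calls (scanpy 1.11.5, 7.83% and 6.87% of cells). Of 55487 gene entries, 234 were dropped and 55253 matched between the libraries. The tag sheets' other columns are names, and sample names were read from them. The gates needed 0 UMIs of Cd79a and Csf1r and were exclusive. Their marker genes are no results.

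UMIs were summed per hash sample and gate with at least 20 cells. Levels are UMIs per 10000 UMIs, intervals are exact Poisson or exact binomial (Clopper-Pearson) at 95%, and both cover counting error only. Sums were tested with edgeR 4.0.16 (quasi-likelihood, TMM, filterByExpr, R 4.3.3), with the hash sample as a block between gates, since both gates come from the same hash samples, or the library as a block between stages. DESeq2 1.42.0 was an alternative. On simulated data edgeR recovered from 90.4% to 97.7% of genes changed 2-fold in the gate comparisons. In the stage comparisons it recovered from 7.45% to 27.8% of genes changed 2-fold and from 72.7% to 91.8% of those changed 4-fold. Recovery of genes that vary between samples as widely as the members was not tested. Gzma, for example, ranged from 0.396 to 36.0 over samples in CD8ab T cells. Other alternatives changed the normalization, the low-count filter, the gate threshold, the purity of gates, doublets, tag calls, depth, the minimum of cells, the block and the samples. Scripts ran in Python 3.11.15 with scipy 1.17.1.

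The named genes are the 6 members, some of the list genes that were called, and for each member the 3 genes most like it. At most 5 per list were chosen, by size. The members, gates, lists and tests were chosen with earlier results of these data known. How many animals stand behind a tag is not given in the sources used here.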

Additional observations from a re-analysis of the deposited data

Results flagged for a closer look

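Lactation and Gestation were compared in each library with 1 sample each, and in 6 cases the later and earlier pools moved in opposite directions by more than counting error. The difference between the libraries was not tested in any of them. On the log2 scale, as later minus earlier pool, it was -1.69 for Gzma, -2.76 for Gzmb and 1.30 for Prf1 in Cd3e- Ncr1+ cells. It was -4.22 for Gzmb and 2.15 for Gzmk in CD8ab T cells, and 2.11 for Gzmk in the T gates together.

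Cells outside every gate, which are 54.1% and 29.8% of the analysed cells, also held the members above the level in B cells of the same library. Gzma was 25.0 UMIs per 10000 in the earlier pool and 9.44 in the later pool, against 0.919 and 0.529 in B cells. Gzmb was 3.103 and 1.64, Gzmc 0.579 and 0.151, Prf1 1.12 and 0.583, and Gzmk 0.0532 and 0.0606. Gzmm was above the B cell interval in the later pool alone, at 0.0382. These cells held 31.3% and 22.1% of all Gzma UMIs of the analysed cells, and what they are was not tested.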

How the results depend on the processing

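Of 544 values of member tests under alternatives, 481 kept direction and side of the threshold, 22 changed sign with no call on either side, 31 lost a call, 7 gained one and 3 with a call on one side changed sign. The 3 were fits without earlier Lactation: Gzma -0.55 and Gzmb -0.52 in the T gates together and Gzma -2.04 in CD8ab T cells. These fits set later Lactation against Gestation of both pools, so the gap between the pools enters their sign. With 1 of the 4 samples left out in turn, these values ranged from -0.55 to 4.14, from -0.52 to 2.43 and from -2.04 to 2.93. Of the 22 uncalled sign changes, 13 came from leaving out 1 sample, among them, without earlier Lactation, Gzmc in the T gates together (-1.63), Gzma (-0.75) and Gzmb (-0.81) in Cd3e- Ncr1+ cells and Gzmb in CD8ab T cells (-0.57). Counts of members called between gates, in the order NK minus Ncr1+ Eomes-, CD8ab minus CD4, CD8a-only minus CD8ab, gd minus CD4 and NK minus CD8ab T, were 3, 3, 2, 2 and 3. Without the low-count filter they were 5, 5, 5, 4 and 5, where 2.5%, 3.04%, 3.44%, 3.74% and 8.91% of all genes were called. The p-values of those fits carry little of the spread between samples, so these counts are not read as results. In the first, 1 of the added calls was Gzma (-0.20), which was tested in both fits. The others were members tested only without the filter. Thinning to 1000 UMIs left 0 of the first and 0 of the second, with 1063 and 388 genes tested in place of 3785 and 2833. Thinned cells were gated again, which left fewer samples with enough cells. These were 3 earlier and 2 later samples for NK cells, and 1 earlier and 4 later samples for CD4 T cells. Gates of 2 UMIs left 1 of the second, and so did the earlier pool alone. Leaving out 1 sample gave 2 to 3, 2 to 3, 2 to 3, 2 to 2 and 3 to 3. For Lactation minus Gestation in the T gates together (2 called), 1 was called with DESeq2, with gates of 2 UMIs, with doublets kept and after thinning, and 0 without TMM, with Cd3d or Cd3g in the gates, with the stricter tag call and with no replicate block, and 0 to 0 when 1 sample was left out. In CD8a-only T cells (1 called) thinning left 0, no replicate block left 0, and leaving out 1 sample left 0 to 1, the 1 being a member not tested with all 4 samples. In CD8ab T and Cd3e- Ncr1+ cells (0 called) leaving out 1 sample gave 1 to 2 and 0 to 1. Fits with 1 sample left out of 4 also drop the library block and assume that a lone sample varies like the other stage. With all 4 samples and no block, 0 members were called in the T gates together and in CD8a-only T cells. A call lost with 1 sample left out therefore cannot be told from the loss of the block. Pairing by sample between gates is by construction, and without that block the counts were 2, 2, 2, 2 and 3. The minimum of 50 cells, the stricter tag call and gates of 2 UMIs gave no value in CD8a-only T stages, nor gates of 2 UMIs in CD8ab T stages and gd T cells, nor the stricter tag call in Cd3e- Ncr1+ stages. Unless a value above shows it, the cause was not tested. Gzmm, and Gzmk between gates, had too few UMIs for the main tests.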
